A study of Mus musculus with 48 samples.

Results

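C2C12 cells that had spent 144 h in differentiation medium were compared with C2C12 cells in growth medium at 0 h, the moment of the medium change. C2C12 is an established line of mouse myoblasts, the dividing precursors of skeletal muscle, which stop dividing and fuse into multinucleate myotubes when serum is lowered. The comparison takes the 3 arrays labelled as 144 h of differentiation and the 3 labelled as 0 h control, 6 of the 48 expression arrays of the series. The 0 h cells were in DMEM with 20% fetal bovine serum, the 144 h cells had been moved to DMEM with 2% horse serum, and neither group was given cycloheximide, the inhibitor of protein synthesis that 2 other groups of the series received. The remaining groups were cells in growth medium 24 h before the change and the earlier of the 12 differentiation times. Per the series' design, each array came from a separate plate and the 3 replicates of a group were grown from successive passages of the one line, so p-values measure the spread between passages. No array holds cells kept in growth medium beyond 0 h, and the effect of the medium cannot be told apart from that of time in culture. Whole plates were lysed, so a larger share of fused cells and more RNA per cell cannot be told apart either.

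Muscle differentiation is driven by the basic helix-loop-helix factors MyoD, Myf5, myogenin and Mrf4 together with Mef2 proteins, which switch on the genes of the contractile apparatus. Commitment requires exit from the cell cycle, brought about by inhibitors of cyclin-dependent kinases and the retinoblastoma protein. Myoblasts then fuse into myotubes. These assemble sarcomeres and the membranes that release calcium, cluster acetylcholine receptors and exchange embryonic and general protein forms for muscle forms.

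Values are log2 RMA values as deposited, differences are log2 values at 144 h minus those at 0 h with their standard error (SE) from limma, and a gene was called risen or fallen at a Benjamini-Hochberg adjusted p under 0.05. Levels of different genes come from different probe sets and are not set against each other. Of 18193 genes, 5168 were called (28.4%), 2459 of them risen (13.5%) and 2709 fallen (14.9%). Counts within the gene lists below are to be read against these shares. A change of at least 2-fold was called for 658 risen genes (3.62%) and 868 fallen genes (4.77%). From 4-fold up, rises outnumbered falls: 244 genes rose and 187 fell at least 4-fold, 78 rose and 3 fell at least 16-fold, and 13 rose at least 64-fold, a size that no fall reached. The array medians were 4.01 to 4.09, and a fall cannot pass the lower end of the scale. The part of that limit in these counts was not tested. The median difference of all genes was 0.04. The groups did not overlap in 92.2% of the called genes and in 36.3% of all genes tested. When the arrays were centred on housekeeping genes, which moved every difference by −0.0844, the risen made up 36.4% of the calls in place of 47.6%. These 19 genes were not all stable. Of them 4 were called risen and 1 fallen, with differences from −0.58 to 1.78 and a median of −0.12. The shift is that of their mean, so it is not a neutral reference.

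One array stood apart. In 144 h replicate 1, 514 genes lay more than 1 log2 unit above both other 144 h arrays and 47 lay as far below both, while among the other 5 arrays no array had more than 40 genes above or 11 below the pair it was grouped with. Correlations between arrays ran from 0.9835 to 0.9946 at 144 h and from 0.9917 to 0.9958 at 0 h. Without that array, 5543 genes were called, 2678 risen and 2865 fallen, of which 694 and 1139 by at least 2-fold. It moved the difference of 5 called named genes by more than 1.5-fold, among them Eya4, Cdc6 (−1.81 without it) and Mcm5 (−1.58). Without 0 h replicate 1 the differences of Myog (2.95), Mymk (5.11), Actc1 (4.19) and Mybph (7.22) were larger by that measure, and without 0 h replicate 2 those of Tnnc2 (4.13), Actc1 (2.91) and Myh3 (4.93) smaller; all of these stayed called. The choice of probe set mattered more: on the mean of a gene's probe sets 58 of the 315 called named genes moved by more than 1.5-fold, for example Mb to 3.51, Myl4 to 3.88, Ckm to 2.98, Smc2 to −0.95 and Rbl1 to −0.77.

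Muscle structural genes made up most of the largest rises. The 15 genes with the largest called and non-overlapping rises were Smpx, Myoz2, Myl4, Mb, Itgb1bp2, Tceal7, Mybph, Myh1, Cav3, Tnnt3, Myot, Myl2, Casq1, Tnni2 and Tcap, with differences from 7.33 down to 5.88. In the list named for the thick filament and M-band, the myosin filaments of the sarcomere and their anchoring line, 23 of 27 measured genes rose and 0 fell. Its median difference was 4.04. The highest difference of the list, 7.33, was that of Smpx, a protein of the costamere, so the list is wider than its name. Of 24 thin filament genes, which encode actins, troponins, tropomyosins and their caps, 20 rose and 1 fell (median 3.80), and of 27 genes of the Z-disc and costamere, where thin filaments are anchored to each other and to the membrane, 22 rose and 1 fell (median 2.62). At an unadjusted p under 0.05, limma likewise had 23 thick filament genes higher and 0 lower. In the alternative that tested only genes at or above the median level, 13 thick filament genes were called risen. Members below that level were not tested there. Averaged over the thick filament list, the 0 h arrays stood at 4.70 to 5.32 and the 144 h arrays at 8.71 to 8.92, with no overlap.

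**Figure D1:**
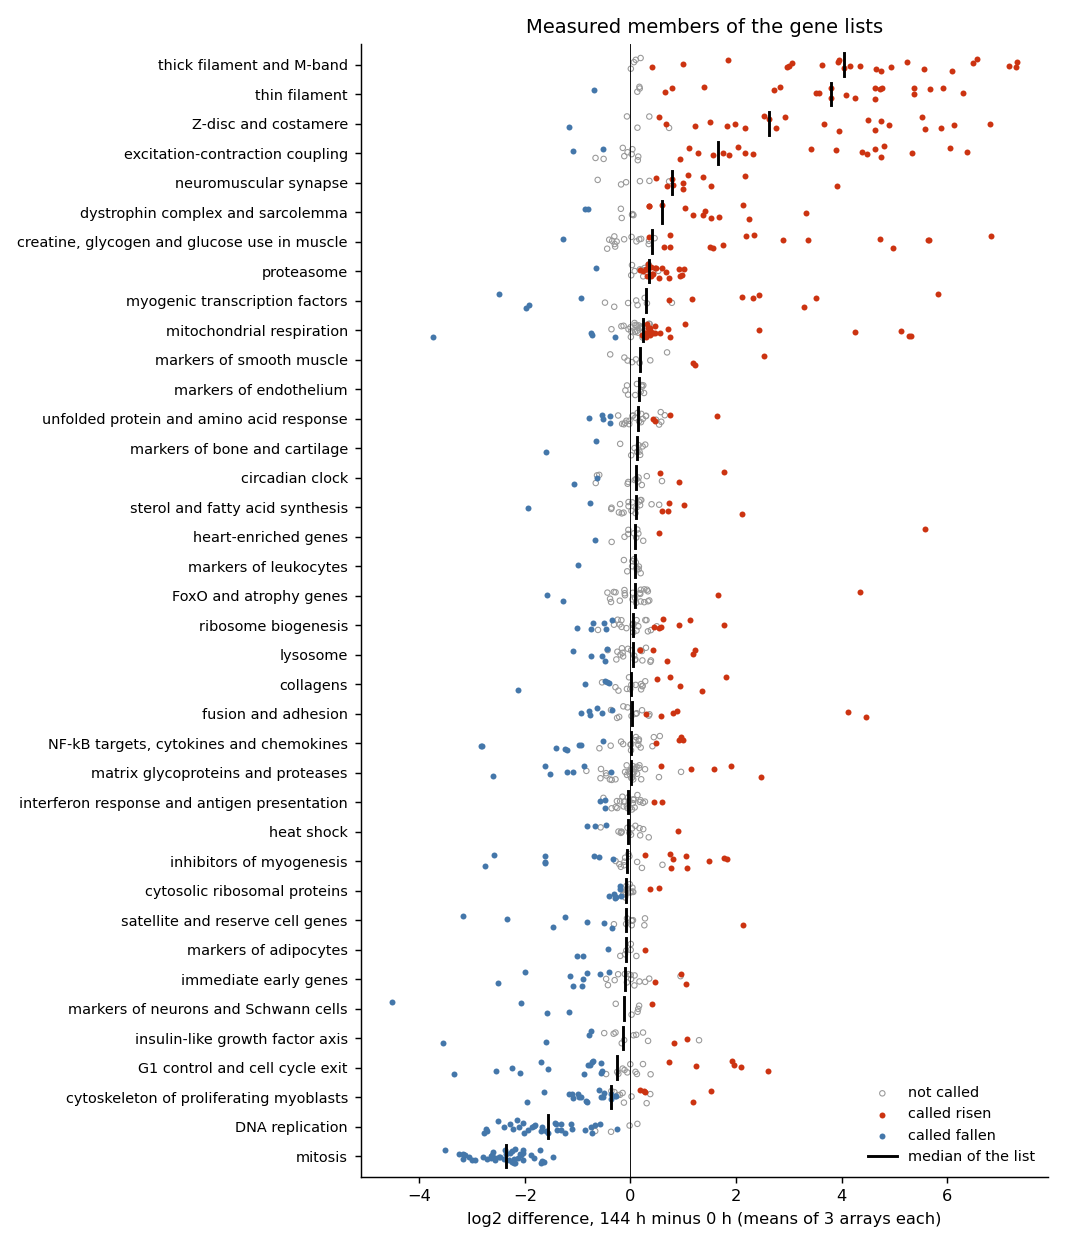
Log2 difference between 144 h and 0 h (x axis) for every measured member of 38 gene lists, ordered by list median; filled points were called risen or fallen, open points were not called, and the bar is the median of the list. The thick filament list lies farthest to the right with a median of 4.04, and the mitosis list farthest to the left with a median of −2.36 and all 43 members called fallen.

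Smpx, a small protein of the costamere, was at 4.77, 3.50 and 4.67 in the 0 h arrays and at 11.67, 11.72 and 11.55 in the 144 h arrays, a difference of 7.33 (SE 0.67, adjusted p = 3.16e-11) or 161-fold. Myoz2, calsarcin-1, which ties calcineurin to the Z-disc, was at 4.55, 4.22 and 4.67 and then at 11.74, 11.75 and 11.85, a difference of 7.30 (SE 0.38, adjusted p = 4.77e-18). In both genes the 0 h values varied more than the 144 h values, and the groups did not come near each other. Among the myosin light chains, Myl4, the embryonic and atrial form, rose by 7.18 (SE 0.59), Myl2, the slow and ventricular regulatory form, by 6.09 (SE 0.17), and Mylpf, the fast regulatory form, by 3.92 (SE 0.58). Myl3 (0.19, adjusted p = 0.312) and Myl6b (0.10, adjusted p = 0.613) did not pass, while on the mean of probe sets Myl3 was called risen by 0.35 (adjusted p = 0.00398).

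The 6 sarcomeric heavy chains followed here all rose. The embryonic Myh3 was at 7.06, 4.65 and 6.02 at 0 h and at 11.80, 11.33 and 11.28 at 144 h, a difference of 5.56 (SE 0.80, adjusted p = 6.03e-07). Myh1, the fast IIx chain, went from 6.6, 4.88 and 5.68 to 12.15, 12.14 and 12.32, a difference of 6.49 (SE 0.70). For both genes 0 h replicate 2 was the lowest of the 0 h arrays, and all 144 h arrays lay above all 0 h arrays. The perinatal Myh8 rose by 4.94 (SE 0.34), the fast IIb chain Myh4 by 4.65 (SE 0.23) and the slow Myh7 by 4.04 (SE 0.54). Myh2, the fast IIa chain, went from 3.08, 3.10 and 3.04 to 6.10, 6.48 and 5.55, a difference of 2.97 (SE 0.16, adjusted p = 2.17e-17). That was the smallest of the 6 on the probe sets used, but on the mean of probe sets Myh4 had 2.71 and Myh1 4.54. The group mean of Myh2 was 3.53 at 48 h and 4.35 at 96 h, whereas that of Myh3 was 11.62 at both of these times.

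In the thin filament, the fast troponins Tnnt3 (6.30, SE 0.66), Tnni2 (5.93, SE 0.56) and Tnnc2 (4.76, SE 0.66) rose, as did Acta1, the skeletal actin, by 4.09 (SE 0.60) and Actc1, cardiac actin, a form of immature muscle too, by 3.51 (SE 0.69). The leiomodins Lmod2 (5.38, SE 0.39) and Lmod3 (5.37, SE 0.57), which nucleate actin filaments, and Klhl41 (5.67, SE 0.57), a stabiliser of thin filament proteins, rose as well. Acta2 (0.18, adjusted p = 0.125) and Tpm2 (0.17, adjusted p = 0.164) had high values in all 6 arrays and were not called, though the mean of its probe sets had Tpm2 risen by 1.24 (adjusted p = 1.27e-05). Tpm3 fell by 0.70 (SE 0.11, adjusted p = 2.98e-06) on its brightest probe set, but the mean of its probe sets had a rise of 1.53. At the Z-disc, Itgb1bp2 (melusin, 6.81, SE 0.50), Myot (myotilin, 6.13, SE 0.26), Tcap (telethonin, 5.88, SE 0.21), Actn2 (5.57, SE 0.36) and Csrp3 (muscle LIM protein, 5.53, SE 0.40) rose. Pdlim5 was called fallen by 1.16 (SE 0.18), a call that ended on the mean of its probe sets (adjusted p = 0.564).

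The promoters of 3 of these genes, chosen as examples, are shown with sequence elements that were also counted in the thick and thin filament lists. They are the 250 bases before the start site, from RefSeq on GRCm38.p6, written 5′ to 3′ on the gene's strand. Capitals mark CAGCTG, an E-box of the type bound by myogenic helix-loop-helix factors, the A/T-rich MEF2 site, and TATAAA, searched on both strands; in Myh4 the MEF2 match and 1 of the 3 TATAAA matches overlap. Myoz2 lies at chr3:123034988-123035237 on the minus strand, Myh4 at chr11:67237562-67237811 on the plus strand and Klhl41 at chr2:69669870-69670119 on the plus strand.
Myoz2: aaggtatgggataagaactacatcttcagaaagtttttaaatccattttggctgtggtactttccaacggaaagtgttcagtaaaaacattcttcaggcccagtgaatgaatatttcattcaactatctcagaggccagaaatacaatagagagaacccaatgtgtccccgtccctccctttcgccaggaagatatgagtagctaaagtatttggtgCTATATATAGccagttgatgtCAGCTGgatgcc
Myh4: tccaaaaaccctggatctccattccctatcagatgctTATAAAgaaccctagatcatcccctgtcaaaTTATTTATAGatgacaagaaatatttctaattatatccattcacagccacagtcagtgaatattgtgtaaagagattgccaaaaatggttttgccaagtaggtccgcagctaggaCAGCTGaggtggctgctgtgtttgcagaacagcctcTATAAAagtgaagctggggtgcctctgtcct
Klhl41: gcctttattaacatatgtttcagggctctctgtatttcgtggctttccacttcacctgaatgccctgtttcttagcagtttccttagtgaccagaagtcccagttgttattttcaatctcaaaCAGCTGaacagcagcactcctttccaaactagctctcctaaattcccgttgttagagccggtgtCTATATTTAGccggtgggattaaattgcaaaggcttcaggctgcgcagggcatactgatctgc
Counted from the start site, the first base of the E-box lies at −12 in Myoz2, −67 in Myh4 and −127 in Klhl41, and the MEF2 site at −33, −182 and −63.

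Promoters of 14452 of the 18193 genes were matched by gene ID or symbol, and the search covered 250 bases before to 50 after the start. CAGCTG was present in 16.1% of them (16.3% of all 32851 promoters of the table), in 10 of 25 thick filament genes (40.0%), 10 of 19 thin filament genes (52.6%) and 31.2% of the genes risen at least 4-fold. The MEF2 site was found in 2.0% of the genes tested (3.2% of all promoters), 7 of 25 thick filament genes (28.0%), 1 of 19 thin filament genes and 10.8% of the genes risen at least 4-fold. TATAAA stood in 9.9% of the genes tested (13.6% of all promoters) and in 36.0% and 15.8% of the thick and thin filament genes. These shares describe letters in a window, not binding.

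Regulators of myogenesis did not move together. Of 20 measured myogenic transcription factors 8 rose and 4 fell, against 13.5% and 14.9% of all genes. Myod1, which encodes MyoD, was at 10.44, 10.07 and 9.64 in the 0 h arrays and at 10.05, 10.22 and 9.74 in the 144 h arrays, a difference of −0.04 (SE 0.28, adjusted p = 0.938) with overlapping groups. Myog, myogenin, was already at 11.42, 9.32 and 9.71 at 0 h and reached 12.60, 12.72 and 12.07, a difference of 2.31 (SE 0.64, adjusted p = 0.00462). Its group mean at 24 h before the medium change was 5.64, so the difference to that group was 6.83 (SE 0.64). Myf5 fell from 8.15, 8.42 and 8.47 to 6.45, 5.45 and 5.66, a difference of −2.49 (SE 0.35), while Myf6, which encodes Mrf4, the factor of maturing fibres, rose from 3.77, 3.78 and 3.69 to 6.96, 6.18 and 5.41, a difference of 2.44 (SE 0.35).

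Mef2c had the largest rise of the list, from 4.77, 4.60 and 4.73 to 11.66, 9.93 and 10.02, a difference of 5.83 (SE 0.45, adjusted p = 4.2e-13). Its highest value was in 144 h replicate 1, and the other 2 arrays were still more than 5 log2 units above every 0 h array. Tead4, a partner of Yap and Vgll proteins, rose by 3.51 (SE 0.32), the histone methyltransferase Smyd1, needed for myosin assembly, by 3.28 (SE 0.33) and the T-box factor Tbx15 by 2.12 (SE 0.15). Eya1, a transcriptional cofactor, fell by 1.92 (SE 0.24), its relative Eya4 by 1.98 (SE 0.46; −2.75 without 144 h replicate 1, where it stood at 8.51) and Vgll2 by 0.94 (SE 0.13). On the mean of probe sets Eya1 had −0.71, Eya4 −1.01 and Smyd1 1.66, all still called. Mef2a (0.79, adjusted p = 0.065) was not called, and was called without 144 h replicate 2 or 3 (0.0481 and 0.042), without dim genes (0.0437) and on the mean of probe sets (0.0416).

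**Figure D2:**
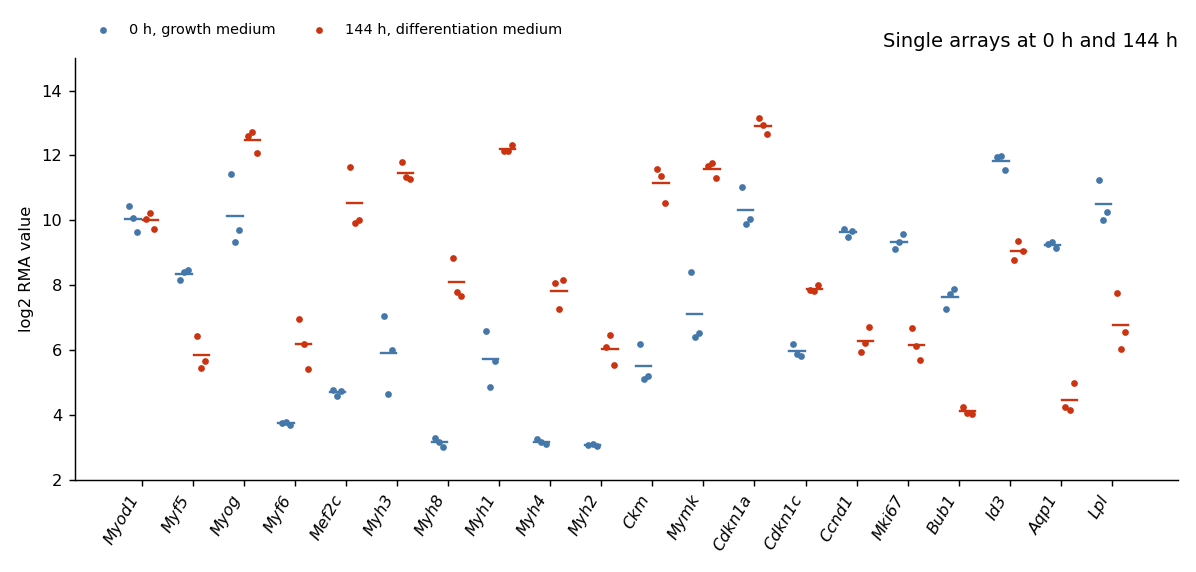
Log2 RMA values (y axis) of 20 genes in each of the 3 arrays at 0 h (blue) and the 3 at 144 h (red); bars are group means, and levels are comparable within a gene only. Myod1 overlaps between the groups, with 9.64 to 10.44 at 0 h and 9.74 to 10.22 at 144 h, and in the other 19 genes the groups are separate.

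Brakes on myogenesis went both ways. Of 28 measured inhibitors 9 rose and 8 fell. Id3, which traps the partners of MyoD, fell from 11.95, 11.97 and 11.56 to 8.79, 9.36 and 9.05, by 2.76 (SE 0.29, adjusted p = 5.25e-10). Id2 fell by 1.62 (SE 0.32) and Id1 by 1.61 (SE 0.34), together with the repressors Snai2 (−2.58, SE 0.28) and Twist2 (−1.62, SE 0.15). Genes of the Notch pathway, which holds myoblasts undifferentiated, were among the risen: Heyl, a target, by 1.82 (SE 0.32), and the ligands Dll1 and Jag1 by 1.07 (SE 0.30) and 1.04 (SE 0.19). Of 17 genes of satellite and reserve cells, the quiescent precursors, 1 rose and 7 fell. Hgf, the growth factor that wakes satellite cells, fell by 3.18 (SE 0.25) and Cd34, a surface marker, by 2.34 (SE 0.26), while Spry1, an inhibitor of growth factor signals that marks quiescence, rose by 2.14 (SE 0.31). Pax7, the satellite cell factor, was at 8.37, 8.27 and 8.44 at 0 h and at 7.90, 7.93 and 8.19 at 144 h, with all 144 h arrays lower, by 0.35 (SE 0.11, adjusted p = 0.0137). That call was lost in 5 of the 15 alternatives, among them the fit without 144 h replicate 1 (adjusted p = 0.064).

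Genes of mitosis fell as a whole list, and most genes of DNA replication fell with them. All 43 measured mitosis genes were called fallen, each at least 2-fold, with a median difference of −2.36 and a range from −3.51 to −1.46. Of 37 genes of DNA replication 33 fell and 0 rose (median −1.57), 27 of them at least 2-fold. At an unadjusted p under 0.05, limma had 43 mitosis and 34 replication genes lower and 0 of either list higher. Without 144 h replicate 1 the counts of falls were 43 and 30. Bub1, a kinase of the spindle checkpoint, went from 7.27, 7.74 and 7.88 to 4.25, 4.07 and 4.02, by −3.51 (SE 0.32, adjusted p = 2.14e-11). Mki67, which encodes the proliferation antigen Ki-67, went from 9.11, 9.33 and 9.58 to 6.68, 6.13 and 5.69, and fell by 3.17 (SE 0.42). The groups were well apart in both genes. Smc2 of condensin (by 3.24, SE 0.50), Nusap1 and Hmmr of the spindle (by 3.16 each) and Ect2, which directs cleavage (by 3.13, SE 0.35), fell as well.

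Averaged over the mitosis list, the 144 h arrays stood at 5.69 for replicate 1 and at 6.43 and 6.32 for replicates 2 and 3, against 8.44, 8.61 and 8.63 at 0 h. The replication list gave 6.07, 6.95 and 6.83 against 8.14, 8.15 and 8.03. Replicate 1 was therefore the lowest of the 144 h arrays in both lists, and the arrays of both times were separate. Replication genes with the largest falls were Uhrf1, which copies DNA methylation (−2.78, SE 0.24), Pola1, the primase-associated polymerase (−2.74, SE 0.34), Tk1, thymidine kinase (−2.71, SE 0.37), and the licensing factors Cdt1 and Cdc6 (−2.52 and −2.40). Mcm5 showed the width of the 144 h group: 5.81, 8.0 and 7.88, against 9.46, 9.56 and 9.52 at 0 h. Lig1 (−0.67, adjusted p = 0.0757) and Tyms (−0.37, adjusted p = 0.143) were not called.

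Promoters of 3 mitosis and 2 replication genes, also chosen as examples, are shown with elements counted in these lists. Capitals mark CCAAT, the binding sequence of NF-Y, TTTGAA, the core of the cell cycle homology region, and TTCCCGC, a form of the E2F site, again on both strands of the 250 bases before the start. Cdk1, the kinase of mitotic entry, lies at chr10:69352913-69353162 (minus), Mki67 at chr7:135716380-135716629 (minus), Top2a, the topoisomerase that untangles chromosomes, at chr11:99024190-99024439 (minus), Uhrf1 at chr17:56303087-56303336 (plus) and Pola1 at chrX:93632156-93632405 (minus).
Cdk1: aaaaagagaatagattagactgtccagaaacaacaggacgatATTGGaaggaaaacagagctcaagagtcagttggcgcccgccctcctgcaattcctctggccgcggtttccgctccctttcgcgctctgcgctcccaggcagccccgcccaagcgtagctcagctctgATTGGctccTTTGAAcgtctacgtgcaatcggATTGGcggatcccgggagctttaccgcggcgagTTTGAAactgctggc
Mki67: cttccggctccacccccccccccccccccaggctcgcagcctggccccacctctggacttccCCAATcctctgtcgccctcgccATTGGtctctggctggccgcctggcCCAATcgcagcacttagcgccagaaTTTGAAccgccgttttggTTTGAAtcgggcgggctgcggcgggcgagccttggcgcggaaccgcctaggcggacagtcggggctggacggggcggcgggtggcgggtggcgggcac
Top2a: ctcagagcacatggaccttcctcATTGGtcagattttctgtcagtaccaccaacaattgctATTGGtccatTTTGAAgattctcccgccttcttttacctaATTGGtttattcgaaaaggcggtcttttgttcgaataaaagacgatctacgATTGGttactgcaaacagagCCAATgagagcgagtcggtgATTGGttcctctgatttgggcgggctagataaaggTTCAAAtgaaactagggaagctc
Uhrf1: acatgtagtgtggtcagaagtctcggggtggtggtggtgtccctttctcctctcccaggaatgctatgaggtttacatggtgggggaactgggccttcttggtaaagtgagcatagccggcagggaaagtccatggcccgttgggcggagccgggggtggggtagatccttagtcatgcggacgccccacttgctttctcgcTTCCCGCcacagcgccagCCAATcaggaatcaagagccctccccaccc
Pola1: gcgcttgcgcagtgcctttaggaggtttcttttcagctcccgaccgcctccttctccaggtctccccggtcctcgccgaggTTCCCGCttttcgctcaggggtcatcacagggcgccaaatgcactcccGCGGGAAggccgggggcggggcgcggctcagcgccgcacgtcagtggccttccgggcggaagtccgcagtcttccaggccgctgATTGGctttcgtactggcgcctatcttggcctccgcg
TTTGAA was present in 26 of 36 mitosis promoters (72.2%), against 13.3% of the genes tested and 17.9% of all promoters, and CCAAT also in 26 of 36, against 38.2% and 37.4%. In the replication list CCAAT stood in 17 of 31 promoters (54.8%), TTTGAA in 3 of 31 promoters (9.7%) and TTCCCGC in 14 of 31 (45.2%), against 7.0% of the genes tested and 4.6% of all promoters, whereas 1 mitosis promoter held TTCCCGC. Among genes fallen at least 4-fold 35.7% had TTTGAA and 15% TTCCCGC. The differences of the genes shown were −2.49 (SE 0.23) for Cdk1 and −3.00 (SE 0.27) for Top2a.

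Of 31 measured genes of G1 control and cell cycle exit 6 rose and 14 fell. Ccnd1, cyclin D1, fell from 9.75, 9.48 and 9.67 to 5.93, 6.23 and 6.70, by 3.35 (SE 0.19, adjusted p = 4.66e-17), and its kinase Cdk6 by 2.25 (SE 0.22). Ccnd3, cyclin D3, which muscle keeps after cell cycle exit, rose by 1.24 (SE 0.34), a call lost without 0 h replicate 3 (adjusted p = 0.0533). Cdkn1a, the inhibitor p21, went from 11.03, 9.88 and 10.05 to 13.15, 12.94 and 12.67, a rise of 2.60 (SE 0.36, adjusted p = 2.42e-07). Cdkn1c, the inhibitor p57, rose by 1.93 (SE 0.30), from 6.18, 5.89 and 5.83 to 7.85, 7.83 and 8.0, although its group means at 24 h and 48 h had been 10.11 and 10.12. Of the retinoblastoma family, Rbl1 (p107) fell by 2.55 (SE 0.22), and Rb1 had a difference of 0.73 (SE 0.28, adjusted p = 0.0493), a call lost in 8 of the 15 alternatives, among them the fit without 144 h replicate 1 (adjusted p = 0.295). E2f2 rose by 2.09 (SE 0.18) while E2f7 fell by 2.08 (SE 0.23).

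The machinery that turns membrane excitation into calcium release rose in large part. Of 30 genes of excitation-contraction coupling 19 rose and 2 fell (median 1.67). Cav3, the muscle caveolin of the tubule membrane, went from 4.25, 3.98 and 4.13 to 10.37, 10.72 and 10.39, a difference of 6.37 (SE 0.26). The calcium buffers Casq1 and Casq2 rose by 6.05 (SE 0.21) and 5.34 (SE 0.53), the voltage sensor Cacna1s by 4.81 (SE 0.27) and the fast calcium pump Atp2a1 by 4.75 (SE 0.51). Atp2a2, the slow and general pump, fell by 0.52 (SE 0.09), and Asph, the gene of aspartyl hydroxylase and of junctin, by 1.10 (SE 0.13). On the mean of probe sets Atp2a2 was called risen by 0.86 (adjusted p = 2.1e-07), and Asph had 0.25 and was not called (adjusted p = 0.205). Cacna2d1 (−0.66, adjusted p = 0.266) and Mtm1 (−0.51, adjusted p = 0.29) were highest in 144 h replicate 1 and were called fallen without it (0.0111 and 0.0105), which brought the falls of this list to 4.

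At the neuromuscular synapse 11 of 17 genes rose and 0 fell by limma (11 and 1 at an unadjusted p under 0.05). The acetylcholine receptor subunits Chrng, the embryonic gamma form (3.91, SE 0.39), Chrnd (2.17, SE 0.21) and Chrnb1 (1.53, SE 0.14) rose, and so did Dok7 (1.37, SE 0.26), the adaptor of the kinase MuSK. Chrne, the epsilon subunit of adult synapses, was at 3.56, 3.52 and 3.49 at 0 h and at 4.78, 4.70 and 4.35 at 144 h, a rise of 1.09 (SE 0.14, adjusted p = 3.85e-08). Of 19 genes of the dystrophin complex and sarcolemma 12 rose and 2 fell. Cavin4, the muscle cavin, rose by 3.33 (SE 0.16), the protease Capn3 by 2.25 (SE 0.21), dysferlin (Dysf), which reseals membrane, by 2.13 (SE 0.21) and Sgca, alpha-sarcoglycan, by 1.53 (SE 0.26). Cavin1 and Sgce, forms of wider expression, fell by 0.86 (SE 0.14) and 0.81 (SE 0.12). Dtna, dystrobrevin, had −0.18 (adjusted p = 0.32) on its brightest probe set and 0.64 (adjusted p = 8.85e-06) as the mean of its probe sets.

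Of 23 genes of fusion and adhesion 6 rose and 6 fell, with a median of 0.02. The 2 muscle-specific fusion proteins had the large rises. Mymk, myomaker, went from 8.40, 6.42 and 6.52 to 11.68, 11.76 and 11.30, a difference of 4.47 (SE 0.73, adjusted p = 6.07e-06). Mymx, myomixer, went from 8.0, 6.4 and 7.34 to 11.23, 11.29 and 11.58, a difference of 4.12 (SE 0.49). Cdh15, M-cadherin, rose by 0.88 (SE 0.21), while the adhesion genes Kirrel (by 0.94, SE 0.11), Itga3 (by 0.64, SE 0.16) and the tetraspanin Cd9 (by 0.54, SE 0.11) fell. Myof, myoferlin, fell by 0.79 (SE 0.12), but had 0.11 (adjusted p = 0.545) without probe sets of the _s_at and _x_at kind.

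Of 32 genes of creatine, glycogen and glucose use 16 rose and 1 fell. Mb, myoglobin, the oxygen store of muscle, went from 6.64, 5.48 and 5.96 to 12.88, 13.09 and 12.59, a difference of 6.83 (SE 0.50), 113-fold. Ckm, muscle creatine kinase, went from 6.20, 5.11 and 5.19 to 11.57, 11.37 and 10.54, a difference of 5.66 (SE 0.55). Prkag3, a regulatory subunit of AMP kinase in fast muscle, rose by 4.97 (SE 0.48), and Adssl1, the muscle adenylosuccinate synthase, by 3.36 (SE 0.21). Pdk4, which holds back pyruvate oxidation, fell by 1.29 (SE 0.19). Of 50 genes of mitochondrial respiration and fat oxidation 22 rose and 4 fell with a median of 0.24, and 13 were called risen with only the 6 arrays in the fit. The large rises were those of Cox6a2 (5.32, SE 0.38), Cox8b (5.28, SE 0.24) and Cox7a1 (4.26, SE 0.20), the muscle forms of cytochrome oxidase subunits, Fabp3, the muscle fatty acid carrier (5.13, SE 0.19), and Cd36, the fatty acid transporter (2.43, SE 0.31). Lpl, lipoprotein lipase, fell from 11.26, 10.01 and 10.27 to 7.75, 6.04 and 6.55, by 3.74 (SE 0.61).

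Forms of one protein were then set side by side in 22 pairs of a general, liver or embryonic form, called general here, and a muscle or adult form. The muscle form rose in 19 pairs and fell in 1, while the general form rose in 4 and fell in 6. Among the 19 was the glucose transporter Slc2a4 (0.34, adjusted p = 0.0355), whose call was lost in 8 of the 15 alternatives. Cox6a1, a general form counted as not called (−0.17, adjusted p = 0.0651), was called fallen in 7 of them. In 6 pairs the muscle form rose and the general form fell: glycogen phosphorylase (Pygm 4.73, Pygb −0.63), AMP deaminase (Ampd1 2.35, Ampd2 −0.67), the calcium pump described above, whose general form turned with the mean of probe sets, filamin (Flnc 0.67, Flna −0.63), tropomodulin (Tmod4 0.65, Tmod3 −1.09) and cofilin (Cfl2 0.79, Cfl1 −0.55). The filamin arrays overlapped, and the call of Flnc was lost in 8 of the 15 alternatives (adjusted p up to 0.257). Without 144 h replicate 1 the calls of Pygb and Ampd2 were lost (adjusted p = 0.11 and 0.0713), and without the _s_at and _x_at probe sets, which may bind several transcripts, those of Ampd2 and Cfl1 (0.164 and 0.264). In 11 pairs the muscle form rose and the general form was not called, as for phosphoglycerate mutase (Pgam2 5.63, Pgam1 −0.34) and alpha-actinin (Actn2 5.57, Actn4 −0.34). Both creatine kinases rose, Ckm by 5.66 and the brain form Ckb by 1.76 (SE 0.15). The ADP/ATP carriers went the other way, with Slc25a4, the muscle form, lower by 0.29 (SE 0.08) and Slc25a5 higher by 0.36 (SE 0.07), and the first of these calls was lost with only the 6 arrays in the fit (adjusted p = 0.125). Between Acss2 (1.22, SE 0.29) and Acss1 (0.21, adjusted p = 0.16), the cytosolic form was the one that rose. The difference of a pair was not tested.

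**Figure D3:**
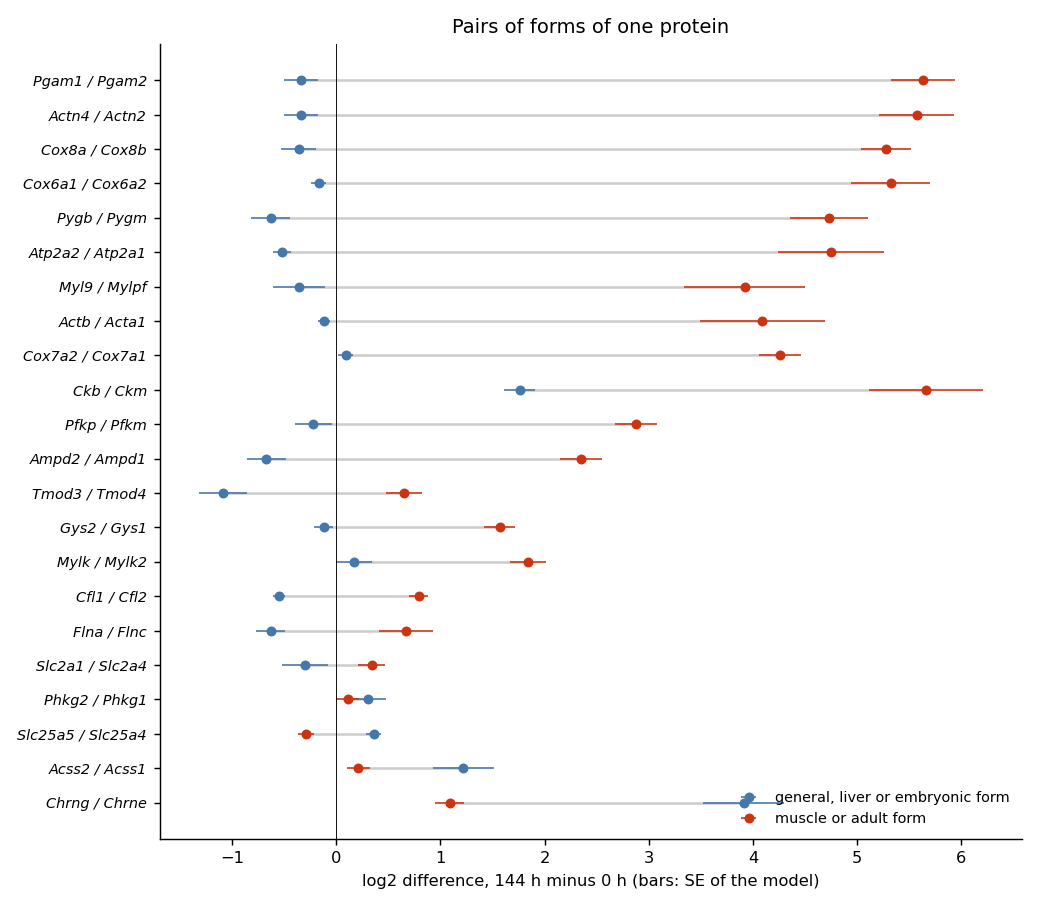
Log2 difference between 144 h and 0 h (x axis, with the SE of the model as bars) for 22 pairs of forms of one protein, the general, liver or embryonic form in blue and the muscle or adult form in red, ordered by the gap between them. In 18 of the 22 pairs the muscle form had the higher difference, and the gap was 5.97 for Pgam2 over Pgam1 and −2.82 for Chrne against Chrng, the embryonic receptor subunit.

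Some genes carried both directions on different probe sets. Of 9009 genes with more than 1 probe set, 75 had at least 1 probe set called risen and 1 called fallen, and in 7 genes both changes were at least 2-fold: Asph, Cep83, Cobl, Masp1, Pdlim5, Reep3 and Tmod3. This group was picked out after its values were seen. For Asph, 3 probe sets fell, by 1.10 to 1.88, and 2 rose, by 2.65 (SE 0.27) and 3.00 (SE 0.32). For Pdlim5, which has forms with and without LIM domains, 5 probe sets fell, by 0.75 to 1.16, and 2 rose, by 2.12 (SE 0.22) and 2.17 (SE 0.27). Tmod3 had 3 falls, of which the largest was 1.09, and 1 rise of 1.29 (SE 0.17). The sources used here do not place the probes on exons, so which transcripts the probe sets read was not analysed here.

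Genes of protein turnover and cell upkeep changed by less. Of 31 proteasome genes 20 rose and 1 fell, by small amounts (median 0.35), among them Psmc5 by 1.01 (SE 0.18) and Psmb3 by 0.94 (SE 0.11), while Psme1, of the immune activator, fell by 0.66 (SE 0.15). The proteasome count was 12 with only the 6 arrays in the fit, 13 centred on housekeeping genes and 13 without 0 h replicate 2. Of 27 FoxO and atrophy genes 2 rose, the ubiquitin ligase Trim63 (MuRF1), which sits in the M-band, by 4.35 (SE 0.29) and the repressor Bcl6 by 1.66 (SE 0.19), and 2 fell, Cited2 by 1.58 (SE 0.11) and Pdk4. The count was 4 in each direction without 144 h replicate 1. The counts of the next lists are to be read against the 13.5% risen and 14.9% fallen of all genes. Of 28 lysosome genes 5 rose and 5 fell, of 31 genes induced by unfolded proteins or lack of amino acids 4 and 5, of 18 heat shock genes 1 and 3, of 32 ribosome biogenesis genes 7 and 6, of 23 ribosomal protein genes 2 and 7, of 25 genes of sterol and fatty acid synthesis 5 and 2, of 30 interferon genes 2 and 3 and of 18 clock genes 3 and 2. Several of these counts moved with 1 array or setting: without 144 h replicate 2 ribosome biogenesis had 2 rises and 3 falls, without 0 h replicate 3 it had 4 rises and sterol synthesis 2, sterol synthesis had 3 without 144 h replicate 2, and the interferon list had 1 fall without 0 h replicate 3 or 144 h replicate 1. With only the 6 arrays in the fit, 1 ribosomal protein gene was called fallen. Examples of members with calls kept in every alternative were Ctsd, cathepsin D (1.18, SE 0.13), Herpud1, of protein disposal from the endoplasmic reticulum (1.63, SE 0.14), Dhcr7, the last enzyme of cholesterol synthesis (2.12, SE 0.27), and Elovl6, a fatty acid elongase (−1.95, SE 0.34). Others kept their calls too, such as Neu1. Dnajc3 was called risen by 0.42 (SE 0.14), with −0.44 on the mean of its probe sets; its arrays overlapped, and the call was lost in 6 of the 15 alternatives.

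Growth factor and matrix genes included several large falls. The counts of these lists, too, are to be read against the 13.5% risen and 14.9% fallen of all genes. Among 16 genes of insulin-like growth factor signalling 2 rose and 4 fell. Igfbp2, a binding protein of these factors, fell from 11.76, 11.71 and 11.06 to 7.87, 8.09 and 7.90, by 3.56 (SE 0.24, adjusted p = 7.09e-15). Igf2, a growth factor that C2C12 cells make while differentiating, was at 10.38, 8.28 and 8.03 at 0 h and at 10.84, 10.07 and 9.68 at 144 h, with overlapping groups (1.3, SE 0.92, adjusted p = 0.338), and its group means at 24 h and 48 h had been 11.10 and 11.26. With the replicate number in the fit as a block, Igf2 was called risen (adjusted p = 0.0104). Of 23 collagens 5 rose, Col8a1 by 1.81 (SE 0.27) and Col1a1 by 1.36 (SE 0.15) the most, and 5 fell, Col12a1 by 2.13 (SE 0.24) the most. Col1a2, the partner chain of Col1a1, fell by 0.49 (SE 0.13). Without 144 h replicate 3 the collagens had 3 rises. Of 44 other matrix genes 5 rose, among them periostin (Postn, 2.47, SE 0.35) and tenascin C (Tnc, 1.91, SE 0.18), and 7 fell, among them Fbln1 (by 2.61, SE 0.32) and Nid1 (by 1.52, SE 0.17). Without 0 h replicate 3 there were 3 rises. Of 28 NF-kB targets and cytokines 4 rose and 8 fell, with Cxcl12, a chemokine that guides myoblasts, at −2.82 (SE 0.24), Cxcl5 at −2.80 (SE 0.26) and Csf1 at −1.42 (SE 0.18).

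Of 27 immediate early genes 3 rose and 9 fell. Fosl1, an AP-1 subunit of dividing cells, fell by 2.51 (SE 0.23), Nr4a2, an orphan receptor, by 1.99 (SE 0.22) and Egr1 by 0.90 (SE 0.15). The 3 rises, Nr4a1, Egr3 and Maff, were each lost when 1 of several arrays was left out (adjusted p up to 0.185). In the cytoskeleton of proliferating myoblasts 18 of 32 genes fell and 5 rose. Stmn1, which destabilises microtubules, fell by 1.96 (SE 0.18), Myh10, a nonmuscle myosin, by 1.63 (SE 0.16), Cd44 by 1.17 (SE 0.14) and Zyx, zyxin of focal adhesions, by 1.09 (SE 0.22), while Tubb6, a tubulin, rose by 1.52 (SE 0.17).

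The largest falls lay partly outside these lists. Aqp1, a water channel, went from 9.27, 9.32 and 9.16 to 4.26, 4.16 and 5.00, by −4.78 (SE 0.21, adjusted p = 1.71e-20), 27.5-fold. F3, tissue factor, which starts blood coagulation, went from 8.15, 8.32 and 8.25 to 3.54, 3.58 and 3.95, by −4.55 (SE 0.22). Nefl, the light neurofilament, went from 7.28, 7.91 and 8.65 to 3.27, 3.10 and 3.90, by −4.52 (SE 0.55). These 3 genes are the falls of at least 16-fold, and none of their arrays overlapped. The growth factor pleiotrophin (Ptn, by 3.84), the kinase subunit Prkar2b (by 3.75), the adhesion protein Clmp (by 3.72), the adaptor Blnk (by 3.62), Crybg1 (by 3.53), the microfilament protein Gas2 (by 3.42), Rgs2, a brake on G protein signals (by 3.38), and the spindle protein Aspm (by 3.32) complete the 15 largest with Lpl, Igfbp2, Bub1 and Ccnd1.

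Markers of other cell types were checked beside the muscle genes. In the 10 neuron and Schwann cell markers, 4 fell, Nefl, Stmn2 (−2.08, SE 0.22), Tubb3 (by 1.59, SE 0.23) and Map2 (by 1.17, SE 0.32). The call of Map2 was lost without 0 h replicate 3 (adjusted p = 0.0539) and on the mean of its probe sets (−0.28, adjusted p = 0.0813). The 1 marker called risen was Sox10 (0.41, adjusted p = 0.0334), whose groups overlapped and whose call was lost in 6 of the 15 alternatives. The list mean was 5.38 to 5.52 at 0 h and 4.43 to 4.71 at 144 h. Of 11 smooth muscle markers 3 rose, Synpo2 (2.54, SE 0.22), desmin (Des, 1.22, SE 0.22), which skeletal muscle also makes, and Tagln (1.19, SE 0.29), with list means of 7.37 to 7.79 and 8.10 to 8.21. Synpo2 was still called on the mean of its probe sets, but with a rise of 0.85. Of 10 adipocyte markers 3 fell, Cebpa by 1.00 (SE 0.26), Pparg by 0.90 (SE 0.20) and Plin4 by 0.43 (SE 0.12), and 1 rose, Fabp4, by 0.28 with overlapping arrays and a call lost in 9 of the 15 alternatives. The adipocyte list stood at 4.29 to 4.41 and 4.06 to 4.21, the leukocyte list (Cd14 fallen by 0.99, SE 0.20) at 4.08 to 4.23 and 4.05 to 4.28, the endothelial list (0 of 10 called by limma, 3 higher at an unadjusted p under 0.05 and 2 called risen without 0 h replicate 2) at 3.71 to 3.85 and 3.81 to 3.96, and the bone and cartilage list (Dmp1 fallen by 1.59, SE 0.30, and Sox9 by 0.66, SE 0.12) at 4.14 to 4.22 and 4.06 to 4.14. The array medians were 4.01 to 4.09. The part of these markers in the other results was not tested. Of 12 heart-enriched genes 2 rose, Actn2 and Ankrd1 (0.55, SE 0.18, a call lost without 144 h replicate 1, adjusted p = 0.0594), and 1 fell, Gata4 (by 0.68, SE 0.22). The call of Gata4 was lost in 4 of the 15 alternatives. Among them were the fit without 0 h replicate 1 (adjusted p = 0.0898) and the mean of its probe sets (−0.25, adjusted p = 0.265).

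Most of the genes changed at least 2-fold had their highest or lowest group mean at 144 h. Among the 658 genes risen at least 2-fold, the group mean was highest at 144 h for 75.1%, at 96 h for 12.9% and at 48 h for 9.6%. The difference had reached 50% of its 144 h size by 24 h in 45%, by 48 h in 76.9% and by 96 h in 96.7%. Among the 868 fallen, the lowest mean was at 144 h for 55.5%, at 96 h for 29.6% and at 48 h for 13.5%, and 50% of the fall was reached by 24 h in 56.1%, by 48 h in 73.5% and by 96 h in 99.1%. These shares describe group means of genes chosen at 144 h, and carry no test.

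**Figure D4:**
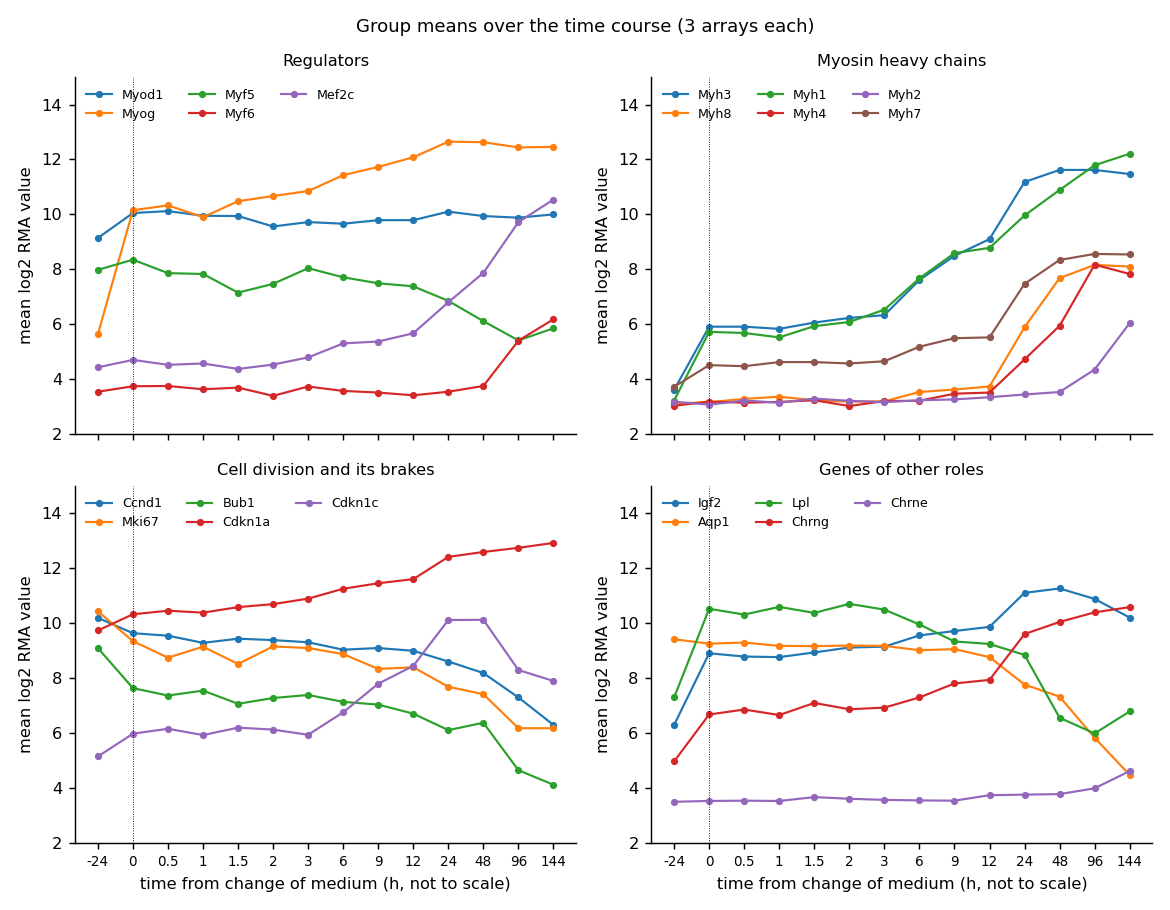
Group means of log2 RMA values (y axis, 3 arrays each) over the time course (x axis in h, not to scale; dotted line, medium change) for regulators, myosin heavy chains, cell division genes with their inhibitors, and genes of other roles. Myog stands at 5.64 at 24 h before the medium change and 12.65 at 24 h, Cdkn1c at 10.12 at 48 h and 7.89 at 144 h, and Myh2 moves last, from 3.53 at 48 h to 6.04 at 144 h.

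The nearest group, 96 h, differed from 144 h in few genes. Limma called 57 of 18193 (0.313%), 38 higher and 19 lower at 144 h; before adjustment, p was under 0.05 in 1461. The count was 156 without 96 h replicate 1, and with only the 6 arrays in the fit limma called 0, with 459 at an unadjusted p under 0.05. Of the 38 genes higher than at 96 h, 35 were also risen against 0 h, and of the 19 lower 17 were also fallen; both comparisons use the 144 h arrays. Myh2 was at 4.91, 3.79 and 4.36 at 96 h, below every 144 h array, a difference of 1.69 (SE 0.16, adjusted p = 3.45e-08). Myl2 was at 8.08, 8.56 and 7.90 at 96 h, a difference of 1.43 (SE 0.17), and Trdn, triadin of the calcium release unit, was at 4.70, 4.18 and 4.73 at 96 h and at 6.73, 5.26 and 4.91 at 144 h. Its difference of 1.10 (SE 0.21) was 0.55 without 144 h replicate 1, and no longer called (adjusted p = 0.0554). The further genes named in this direction were Il12a, an interleukin subunit (1.25, SE 0.23), Fxyd1, phospholemman, a regulator of the sodium pump (1.23, SE 0.26), the calcium channel subunit Cacna2d2 (1.19, SE 0.17), the protease Asprv1 (1.17, SE 0.17) and Serping1, the C1 inhibitor (1.06, SE 0.25). Calls were lost without single arrays for Fxyd1 (adjusted p up to 0.182), Serping1 (up to 0.167) and Il12a (0.0559 without 144 h replicate 2), and on the mean of probe sets for Cacna2d2 (0.38, adjusted p = 0.0596).

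Lower at 144 h than at 96 h were Tubb3, a tubulin of neurons (by 1.41, SE 0.23), Aqp1 (by 1.35, SE 0.21), Igfbp2 (by 1.28, SE 0.24), the mitochondrial calcium-binding protein Efhd1 (by 1.03, SE 0.20), Ccnd1 (by 1.00, SE 0.19), the adhesion molecule L1cam (by 0.97, SE 0.18), Mthfd1l, of mitochondrial folate metabolism (by 0.94, SE 0.19), and Steap1 (by 0.88, SE 0.14). Without 144 h replicate 1 the calls of Efhd1 (−0.68, adjusted p = 0.182), Mthfd1l (−0.60, adjusted p = 0.211) and Ccnd1 (−0.83, adjusted p = 0.0829) were lost, and that of L1cam without 96 h replicate 2 (adjusted p = 0.057). Tubb3 had arrays of 6.16, 6.36 and 6.63 at 96 h and 4.69, 5.40 and 4.82 at 144 h. It had been at 6.49, 6.59 and 6.58 at 0 h, so the 96 h arrays overlapped those at 0 h and the 144 h arrays lay below both.

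**Figure D5:**
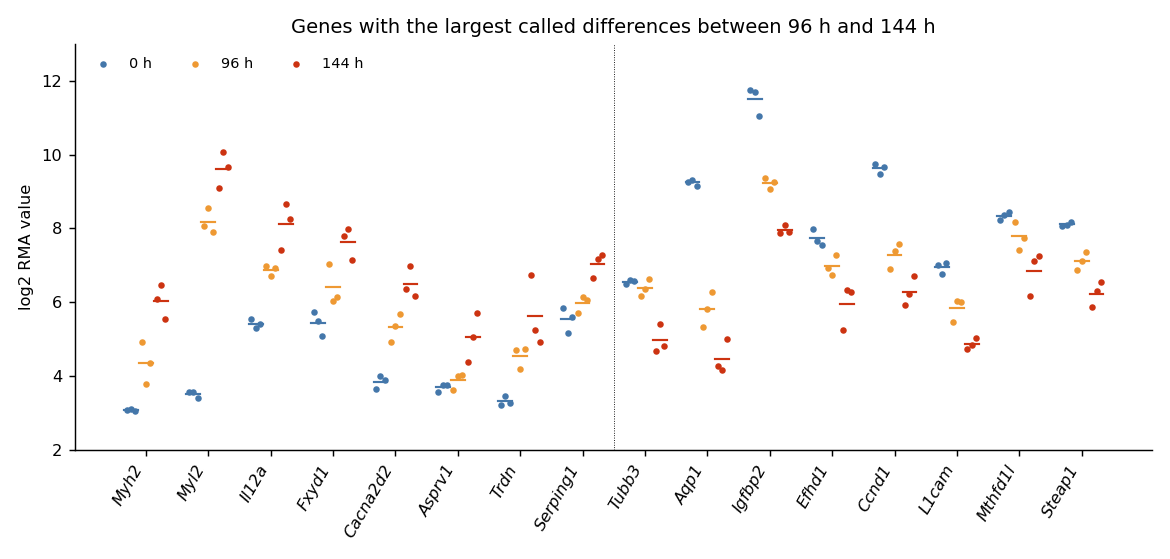
Log2 RMA values (y axis) of the 16 genes named for the largest called differences between 96 h and 144 h, in each array at 0 h (blue), 96 h (orange) and 144 h (red), with bars for group means; higher genes stand left of the dotted line and lower genes right. Myh2 runs from 3.79 to 4.91 at 96 h and from 5.55 to 6.48 at 144 h, and for Asprv1 and Tubb3 the 96 h arrays lie close to those at 0 h.

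Set against the growth medium cells taken 24 h before the medium change, 144 h differed in more genes than against 0 h: 6324 were called (34.8%), 3232 risen and 3092 fallen, with 950 and 1238 at least 2-fold. Both comparisons share the 144 h arrays, and each gene's own values are given side by side. Tnnc2 differed by 8.93 (SE 0.66) from 24 h before and by 4.76 from 0 h, Myom2, an M-band protein, by 8.15 (SE 0.52) and 5.24 (SE 0.52), and Actc1 by 7.87 (SE 0.69) and 3.51. Cav3, by contrast, had 6.38 (SE 0.26) and 6.37, with 4.11 as its mean 24 h before and 4.25, 3.98 and 4.13 in the 0 h arrays. Falls of cell division genes were larger too, with −4.98 (SE 0.32) for Bub1 and −5.07 (SE 0.50) for Smc2, in place of −3.51 and −3.24. Lpl differed by −0.51 (SE 0.61, adjusted p = 0.573) from 24 h before, where its mean was 7.29, and Rgs2 by −0.81 (SE 0.22). Myod1 was higher than 24 h before by 0.87 (SE 0.28, adjusted p = 0.0126) and Igf2 by 3.91 (SE 0.92, adjusted p = 0.000785).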

How the data were processed

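Total RNA from C2C12 cells was hybridised to mouse expression arrays, 48 in all in 16 groups of 3. The deposited values are log2 intensities that the authors made with RMA, per the submitters' processing notes; its version, and whether all arrays were normalised together, are not given in the sources used here. No depth exists for arrays, and their number limits the precision. Of 45101 probe sets, 64 controls were left out and 34945 had a single gene symbol in GEO's platform annotation; the probe set with the highest mean over all arrays stood for each of 18193 genes, 1545 of them on _s_at or _x_at probe sets. Limma 3.58.1 (R 4.3.3) was fitted to all 48 arrays with 1 coefficient per group (32 residual degrees of freedom), two-sided, with Benjamini-Hochberg adjustment over all genes, and was tested on simulated data. The members, gene lists and tests were chosen with earlier results of these data known. Named genes were the 15 largest called, non-overlapping changes in each direction, up to 6 called members per direction and 2 uncalled members of each list, a set of myogenic genes, both members of each pair, and 8 per direction in the comparisons with 96 h and with 24 h before the medium change; Cdk1, Top2a and the genes with opposed probe sets were chosen after their values were seen. Alternatives were the replicate number as a block, only the 6 arrays compared, no cycloheximide arrays, trend and robust eBayes, quantile normalization again, centring on housekeeping genes, no dim genes, the mean of probe sets, no _s_at or _x_at sets, and leaving out each array. Promoter sequences are from RefSeq (GRCm38.p6).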

Additional observations from a re-analysis of the deposited data

Results flagged for a closer look

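The change from 0 h differed between 144 h and 96 h for 57 genes by limma's test of that difference, and the 8 largest in each direction are given here. It was larger at 144 h by 1.69 for Myh2, 1.43 for Myl2, 1.25 for Il12a, 1.23 for Fxyd1, 1.19 for Cacna2d2, 1.17 for Asprv1, 1.10 for Trdn and 1.06 for Serping1. It was lower at 144 h, by −1.41 for Tubb3, −1.35 for Aqp1, −1.28 for Igfbp2, −1.03 for Efhd1, −1.0 for Ccnd1, −0.97 for L1cam, −0.94 for Mthfd1l and −0.88 for Steap1. Since both changes are taken from the same 0 h arrays, this is the difference between 144 h and 96 h.

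Probe sets without a single gene symbol took no part in the comparisons. Of 10092 such probe sets 839 were called between 144 h and 0 h (8.3%), 355 risen and 484 fallen, against 8160 of 34945 probe sets with a symbol (23.4%).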

How the results depend on the processing

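The number of genes called between 144 h and 0 h stayed between 3838 (only the 6 arrays) and 6269 (replicate block), and from 4163 to 5543 when each array was left out in turn. On the mean of probe sets 540 genes fell at least 2-fold, in place of 868. The count against 96 h, 57, was 154 with the replicate block, 0 by limma with only the 6 arrays (459 at an unadjusted p under 0.05), 23 without dim genes, and from 40 to 156 with 1 array left out, the highest without 96 h replicate 1. Fewer arrays or genes enter the smaller of these fits; the cause of the other shifts was not tested. The direction turned for Tpm3 (1.53), Asph (0.25), Atp2a2 (0.86), Dtna (0.64) and Dnajc3 (−0.44) on the mean of probe sets and for Myof (0.11) without _s_at and _x_at sets. Of 315 called named genes 240 kept their call in every alternative run. The series' design does not tie a replicate number to a passage. Same-numbered arrays deviated with correlations of −0.216, 0.236 and −0.104 between 144 h and 0 h. They were 0.307, 0.355 and 0.031 between 144 h and 96 h, and 0.001, 0.069 and 0.296 between 144 h and 24 h before the medium change. Arrays of unlike number had −0.547 to 0.441, −0.468 to 0.338 and −0.236 to 0.177 in these comparisons. The signs were thus mixed against 0 h and all above 0 in the other 2 comparisons, which does not settle whether numbers pair the arrays. The block raised the count against 24 h before the medium change from 6324 to 7323. With it Igf2 (adjusted p = 0.0104), Mef2a (0.0126) and Acta2 (0.0263) were called against 0 h.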
